A study of Mus musculus with 21 samples.

Results

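The mouse alpha-like globin genes Hba-x, Hba-a1, Hbq1b, Hba-a2 and Hbq1a form 1 cluster on chromosome 11, described here as the target of chromatin contacts. The cluster was taken as chr11:32174000-32204000 (mm9), a 30 kb stretch, in all 5 libraries of the alpha-globin locus. It held 31 listed positions in the Hba-a1 liver library with full template and in both HS-26 libraries, and 30 in the Hba-a1 libraries with 1/16 template and from brain. That made 153 of the 1830 positions of these 5 libraries, and of the 14666 positions of all 21 libraries of the series.

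The study applied 4C-seq, in which DNA ligated to 1 chosen fragment (the viewpoint) after crosslinking is amplified and sequenced, to several loci. Cells of C57BL/6 embryos at 14.5 dpc were fixed with 2% formaldehyde for 10 min, and DpnII and then Csp6I cut the chromatin and the ligated DNA. The groups were Hba-a1 promoter in fetal liver with full template, Hba-a1 promoter in fetal liver with 1/16 of the PCR template, Hba-a1 promoter in fetal brain, HS-26 in fetal liver and HS-26 in fetal brain, with 1 library each. Tissue was pooled over embryos, so a library averages over animals and cell types, and no gene expression was measured against which the labelled tissue could be checked.

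Alpha-like globins pair with beta-like globins to make haemoglobin. Hba-x encodes the embryonic zeta chain, Hba-a1 and Hba-a2 encode the adult alpha chain, and Hbq1b and Hbq1a are theta globin genes. HS-26 is a DNase I hypersensitive site within the neighbouring gene Nprl3 and the major enhancer of the cluster. Fetal liver at this stage is the main site of red cell production, whereas the globin genes are silent in fetal brain.

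The 5 genes fall into related copies, and the 250 bases before each gene's start, taken from RefSeq (GRCm38.p6) for 5 of 5 genes, show how close the copies are. These sequences are printed because reads from near-identical copies can be hard to place. The adult pair had no difference over 247 aligned bases. The stretches below end just before the start of Hba-a1 (chr11:32283552-32283671, plus strand) and near that of Hba-a2 (chr11:32296369-32296488, plus strand), with the motifs CCAAT and TATAAG in capitals.
Hba-a1: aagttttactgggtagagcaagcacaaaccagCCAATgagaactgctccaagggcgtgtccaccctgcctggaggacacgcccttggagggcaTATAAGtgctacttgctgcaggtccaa
Hba-a2: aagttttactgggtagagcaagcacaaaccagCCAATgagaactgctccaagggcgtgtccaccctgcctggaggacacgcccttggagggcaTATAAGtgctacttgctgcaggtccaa

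The theta pair was identical at 239 of 250 bases (95.6%). The 200 bases before Hbq1b (chr11:32286764-32286963, plus strand) and Hbq1a (chr11:32299869-32300068, plus strand) hold 7 of the 11 differing bases, in capitals.
Hbq1b: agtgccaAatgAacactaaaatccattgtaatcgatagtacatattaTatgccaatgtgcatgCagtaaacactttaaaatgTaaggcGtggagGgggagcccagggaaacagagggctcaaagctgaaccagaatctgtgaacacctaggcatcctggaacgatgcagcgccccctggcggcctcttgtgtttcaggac
Hbq1a: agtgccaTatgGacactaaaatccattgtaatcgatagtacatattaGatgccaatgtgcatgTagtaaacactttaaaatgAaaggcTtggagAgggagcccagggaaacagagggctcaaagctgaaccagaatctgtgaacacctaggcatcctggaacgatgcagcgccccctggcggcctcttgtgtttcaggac

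All other pairs of promoters were 27.8% to 31.2% identical. Every pair was aligned without gaps at the offset that gave the highest identity, and unrelated promoters were not compared in this way. Both strands of these windows were searched for short motifs, each counted on its own whether or not it overlapped another. GATC, the site of DpnII, was in 0 of the 5 windows, against 41.9% of 32851 RefSeq promoters. GTAC, the site of Csp6I, was in the windows of Hbq1b and Hbq1a and in 31.5% of all promoters. TATAAG was in those of Hba-a1 and Hba-a2 (6.65% of all promoters), and TATAAA was in that of Hba-x (12.4%). CCAAT was in 4 of the 5 windows (33.8%), and GATAA in those of Hba-x, Hba-a1 and Hba-a2 (22.6%). A match describes the letters only.

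In RefSeq the order along the chromosome is Nprl3, Hba-x, Hba-a1, Hbq1b, Hba-a2, Hbq1a. Each viewpoint was placed at the median of its libraries' own signal maxima. This put the Hba-a1 viewpoint at 32.1849 Mb and HS-26 at 32.1493 Mb, 35.6 kb apart. The Hba-a1 maxima lay at 32.1845 Mb with full template, 32.1879 Mb with 1/16 template and 32.1849 Mb in brain. Distances below are from the Hba-a1 viewpoint, negative toward HS-26, so that Hba-x lies at negative distances and Hbq1b, Hba-a2 and Hbq1a at positive ones. The annotation available was of another build than the files, so genes were placed by this order and no value was assigned to 1 gene beyond it.

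Each library lists a signal every 1 kb for windows of 2 kb to 49 kb, as a middle, a higher and a lower value. Values below are middle values of the 5 kb window unless another is named, and neighbouring windows overlap, so positions are not independent. The labels do not state the scale of the signal. A relative signal is the signal over the library's own mean beyond 10 kb of the viewpoint, which was 0.00471 in HS-26 liver and 0.0163 in HS-26 brain. It was 0.0414 in Hba-a1 liver with full template, 0.0447 with 1/16 template and 0.0283 in Hba-a1 brain. No read numbers were listed, so the depth is unknown, and 1 library per group allows no test of any difference below.

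Some windows of the cluster were listed at 0 in all 3 values. In the 2 kb window these were 15 of 31 cluster positions (48.4%) in HS-26 liver and the same 15 in HS-26 brain, against 63 of 318 positions (19.8%) outside the cluster. In the Hba-a1 libraries they were 14 of 30 (46.7%) with 1/16 template and the same 14 in brain, against 81 of 369 outside. With full template they were 8 of 31 (25.8%), against 30 of 318 outside (9.43%). The windows at 0 were thus the same in liver and brain from HS-26, and from Hba-a1 for the 1/16 library, whereas the full-template library had fewer than brain. All 38 of the full-template library were among the 78 of the HS-26 libraries. The run of 10 such windows from 32.194 to 32.203 Mb, on the Hba-a2 and Hbq1a side, was the longest of 33 runs in the locus. In the 5 kb window, 2 positions (32.198 and 32.200 Mb on the HS-26 grid) were at 0 in 4 of the 5 libraries, all in the cluster, and 0 in the full-template library. The middle value alone was 0 more often with full template, at 69 of 346 positions in the 5 kb window, 0 of them in the cluster. In the other libraries it was 0 at 2 or 3 positions. In the 2 kb window it was 0 at 114 of 349 positions with full template and 95 of 399 in Hba-a1 brain. The sources used here do not say how reads that match more than 1 copy were treated, and the part of the copies in these windows was not tested.

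**Figure D1:**
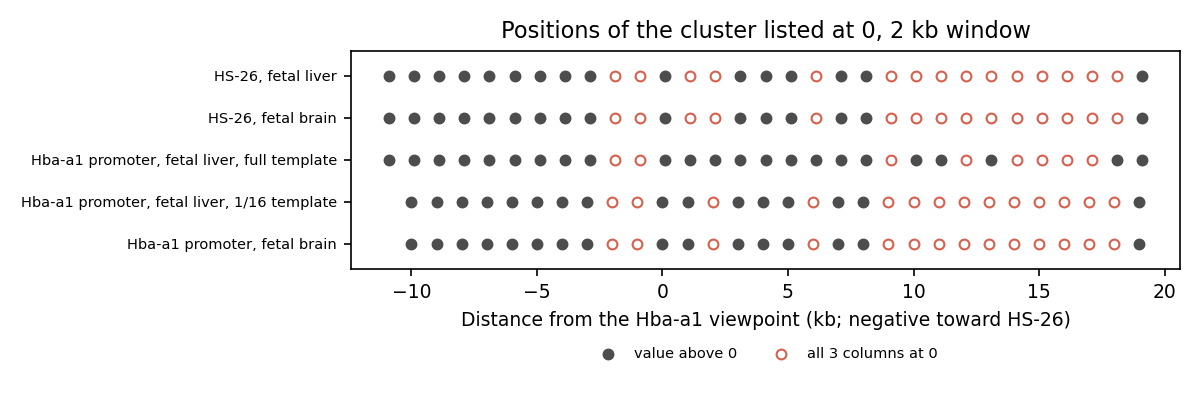
Positions of the alpha-like globin cluster in the 2 kb window by distance from the Hba-a1 viewpoint (kb), 1 line of points per library, filled where a value is above 0 and open where all 3 values are 0. Open points fall at the same places in the HS-26 libraries from liver and brain, and in the Hba-a1 libraries with 1/16 template and from brain, while the full-template library has 8 open points against 14 in Hba-a1 brain.

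Seen from HS-26, the cluster took a larger share of the distant signal in liver than in brain. In liver it stood above all other 30 kb stretches compared, whereas in brain this depended on which stretches were taken. It held 41.5% of all signal beyond 10 kb in HS-26 liver and 17.5% in HS-26 brain, at 9.51% of the positions. This share has the same denominator as the relative signal, so it is the same comparison in another form. Mean relative signal over the cluster was 4.36 in liver and 1.84 in brain, a log2 ratio of liver over brain of 1.24. As deposited, the direction was the other way, with a mean signal of 0.0205 in liver, 0.0299 in brain and a log2 ratio of -0.54. The lower and higher values of the window averaged 0.00260 and 0.0899 in liver, and 0.00986 and 0.0724 in brain, so the ranges overlapped. Against 7 other stretches of 30 kb that did not overlap each other, the cluster was highest in relative signal in both tissues. Those reached 0.375 in liver and 1.03 in brain. Stretches of 30 kb were also taken from every 5 kb step, a comparison chosen after seeing the data. Those within 10 kb of HS-26 or overlapping the cluster were left out. No stretch compared with the cluster thus held 32.164 to 32.174 Mb, between HS-26 and the cluster. There the 5 kb from 32.164 to 32.169 Mb had a relative signal of 14.9 in liver. Taken over 30 positions, the cluster's relative signal of 4.48 in liver was above all 44 others, the highest of which had 1.14. In brain its 1.85 was below 2 of the 44, overlapping stretches on the opposite side of HS-26, with up to 2.68 at 32.109 to 32.139 Mb. Its log2 ratio of 1.28 was above all 44, the highest of which had -0.70.

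Positions at the same distances on the other side of HS-26, from 32.0945 to 32.1245 Mb, gave a comparison within each library. In liver the cluster averaged 0.0205 and the opposite side 0.00219, a 9.38-fold difference. In brain the cluster averaged 0.0299 and the opposite side 0.0208, a 1.44-fold difference. The excess over matched distances was thus larger in liver, with no scaling involved. On the opposite side the median was 0.00148 in liver and 0.0206 in brain. The commonest value above 0 beyond 10 kb was 0.000962 in liver and 0.00233 in brain. The opposite side in liver thus held low values, and their part in the difference was not tested. In the 2 kb window the log2 ratio of cluster over opposite side was 2.31 in liver and -0.42 in brain, so in brain the direction turned with the window.

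Counted by position, 21 of 31 cluster positions were above the library mean in liver and 28 of 31 in brain, against 26 of 295 (8.81%) and 66 of 295 (22.4%) outside. Liver had the higher peak but fewer positions above the mean. With a pseudocount of 0.1 on the relative signal, 9 of 31 cluster positions (29.0%) were at least 2-fold higher in liver than in brain, against 4.29% of the 326 positions compared. Another 4 of 31 (12.9%) were at least 2-fold lower, against 48.5% of all. The median log2 ratio was 0.48 over the cluster and -0.96 over all positions. A commonest single value filled 38.7% of the HS-26 liver positions beyond 10 kb and 6.13% of those in brain, and 0 cluster positions held it.

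**Figure D2:**
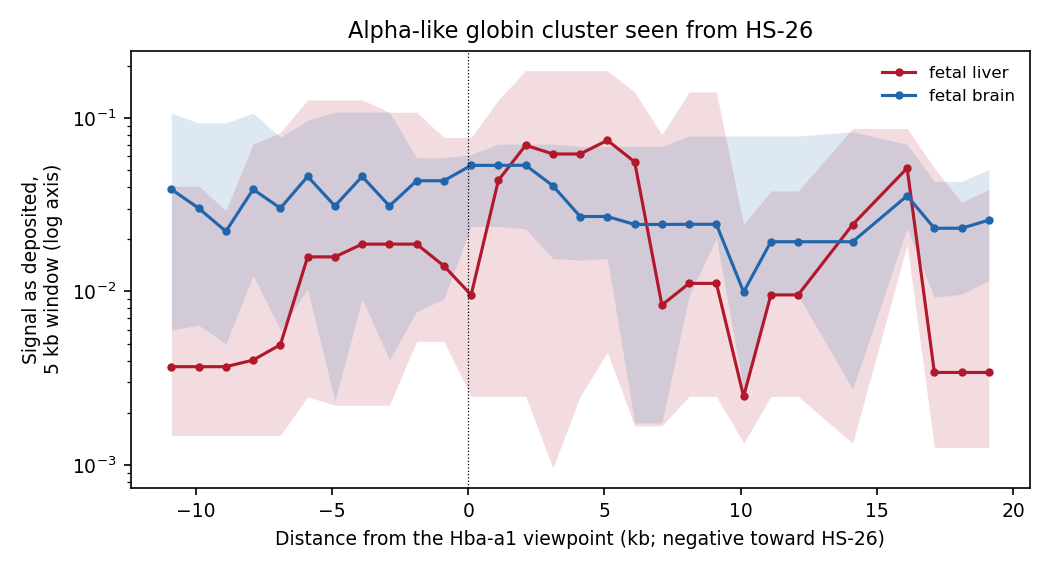
Signal as deposited (5 kb window, log axis) across the cluster from HS-26, by distance from the Hba-a1 viewpoint (kb), with lines for the middle value, shading from the lower to the higher value, and positions listed at 0 not drawn. Liver peaks at 5.11 kb with 0.0742 and lies below brain over most of the Hba-x side, while brain peaks at 2.11 kb with 0.0533.

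Within the cluster, HS-26 signal in liver was concentrated just beyond the Hba-a1 viewpoint. The highest middle value in liver was 0.0742 (relative signal 15.8) at 32.190 Mb, 5.11 kb beyond the viewpoint. In brain it was 0.0533 (relative signal 3.28) at 32.187 Mb, 2.11 kb beyond it. The lowest value above 0 lay at 32.195 Mb in both tissues, with 0.00249 in liver and 0.00994 in brain. Across the 29 positions not at 0, the Spearman correlation between the tissues was 0.41, a description of overlapping windows that share the listed fragments.

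The cluster was then cut into 6 bins of 5 kb. The first bin, from -10.9 to -5.89 kb, on the side of Hba-x, held 3.15% of the cluster's signal in liver and 17.2% in brain. The bin from -5.89 to -0.894 kb, also on that side, held 13.8% in liver and 21.3% in brain. Together these held 16.9% of the cluster's signal in liver and 38.5% in brain, so the Hba-x side took a smaller share in liver.

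The bin with the Hba-a1 viewpoint, from -0.894 to 4.11 kb, held 31.2% in liver and 26.3% in brain. The next bin, from 4.11 to 9.11 kb, held 33.2% in liver and 13.7% in brain. This bin, beyond the Hba-a1 viewpoint, had the largest gain in share in liver of the 6. Which gene starts lie in it was not determined. The bin from 9.11 to 14.1 kb held 5.14% in liver and 7.86% in brain, and the last, from 14.1 to 19.1 kb on the side of Hbq1a, held 13.5% in liver and 13.7% in brain. These last bins each hold 1 window at 0, and at 2 kb the first of them has no value above 0 in either library.

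In relative signal the first bin was the only 1 of the 6 that was lower in liver, at 0.850 in liver and 1.97 in brain (log2 -1.21). The bin from 4.11 to 9.11 kb had 8.98 in liver and 1.56 in brain (log2 2.52), and was also higher in liver as deposited, at 0.0423 in liver and 0.0254 in brain. It was the only bin higher in liver on both scales. The viewpoint bin had 8.44 in liver and 3.00 in brain (log2 1.49), but 0.0397 in liver and 0.0488 in brain as deposited. Relative signals in the remaining 3 bins were 1.39 to 3.73 in liver and 0.898 to 2.43 in brain, while all 3 were lower in liver as deposited.

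Of 62 such bins along the locus, 4 (6.45%) were at least 2-fold higher in liver in relative signal and 3 of these lay in the cluster. The 4.11 to 9.11 kb bin had the highest log2 ratio of the 62. Outside the cluster, 1 of 56 bins passed 2-fold higher, from 32.164 to 32.169 Mb between HS-26 and the cluster, with 14.9 in liver and 4.68 in brain (log2 1.67). The bin next to the cluster, from 32.169 to 32.174 Mb, had 4.04 in liver and 2.61 in brain (log2 0.63). The higher relative signal in liver thus did not begin at the cluster's edge. Toward the opposite side of HS-26, the bin from 32.134 to 32.139 Mb had 2.47 in liver and 4.27 in brain (log2 -0.79), and that from 32.019 to 32.024 Mb had a log2 ratio of 0.27. Bins at least 2-fold lower in liver made up 61.3% of the 62, namely 1 of 6 in the cluster and 37 of 56 outside. The outside bins' median log2 ratio was -1.48. The library means that scale these ratios include the cluster. By position, 154 of 295 outside the cluster were at least 2-fold lower in liver and 5 higher. With scaling by the library median these were 84 and 45.

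**Figure D3:**
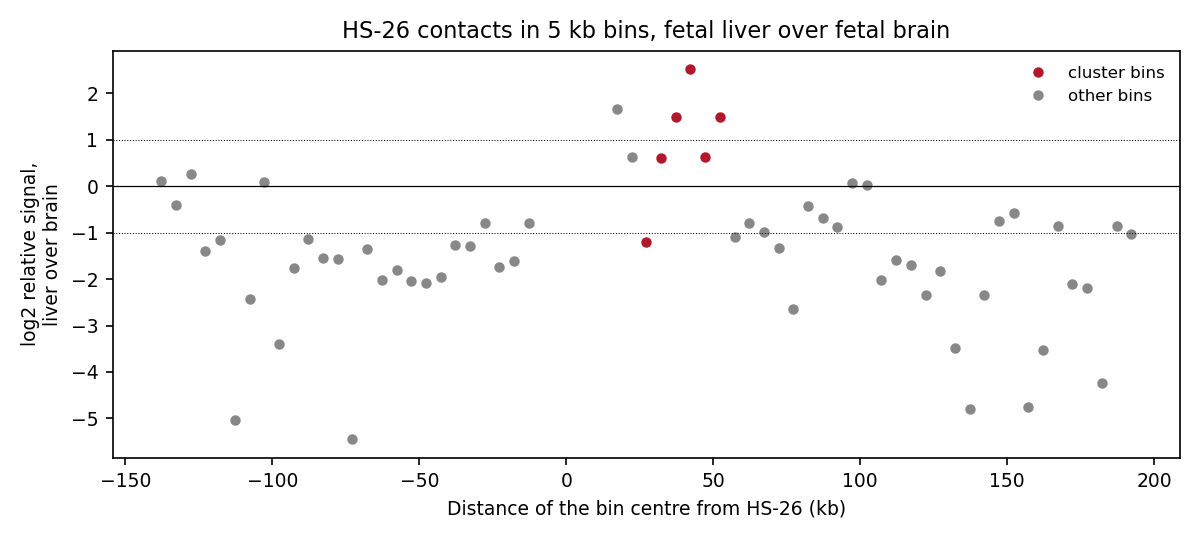
Log2 ratio of relative signal, liver over brain, from HS-26 in 62 bins of 5 kb by distance of the bin centre from HS-26 (kb), with dotted lines at 2-fold and cluster bins in red. Of the 6 cluster bins 5 lie above 0, and most of the other bins lie below it.

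Seen from the Hba-a1 promoter itself, the cluster contains the viewpoint, so high signal around it is given by the assay. The bin of the viewpoint held 58.0% of the cluster's signal in liver with full template, 45.3% with 1/16 template and 40.7% in brain. The higher value of the window reached 47.8 with full template, 4.75 with 1/16 template and 323.6 in brain. This outer value thus differed widely between libraries, also between those from liver.

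On the Hba-x side, the first bin held 1.37% in liver with full template, 4.74% with 1/16 template and 10.4% in brain. The second held 14.5%, 17.6% and 25.1% in the same libraries. Both together held 15.9% with full template, 22.4% with 1/16 template and 35.5% in brain. Both liver libraries gave the Hba-x side a smaller share than brain, as in the HS-26 libraries. The liver libraries differed from each other 3.47-fold in the first bin, and template amount is the difference that the labels give between them. Whether the full-template library, whose label carries a longer number, pools several runs is not stated. In the 2 kb window the Hba-x side held 17.0% in liver and 56.5% in brain from HS-26, and 1.73% with full template, 23.9% with 1/16 template and 40.3% in brain from Hba-a1.

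**Figure D4:**
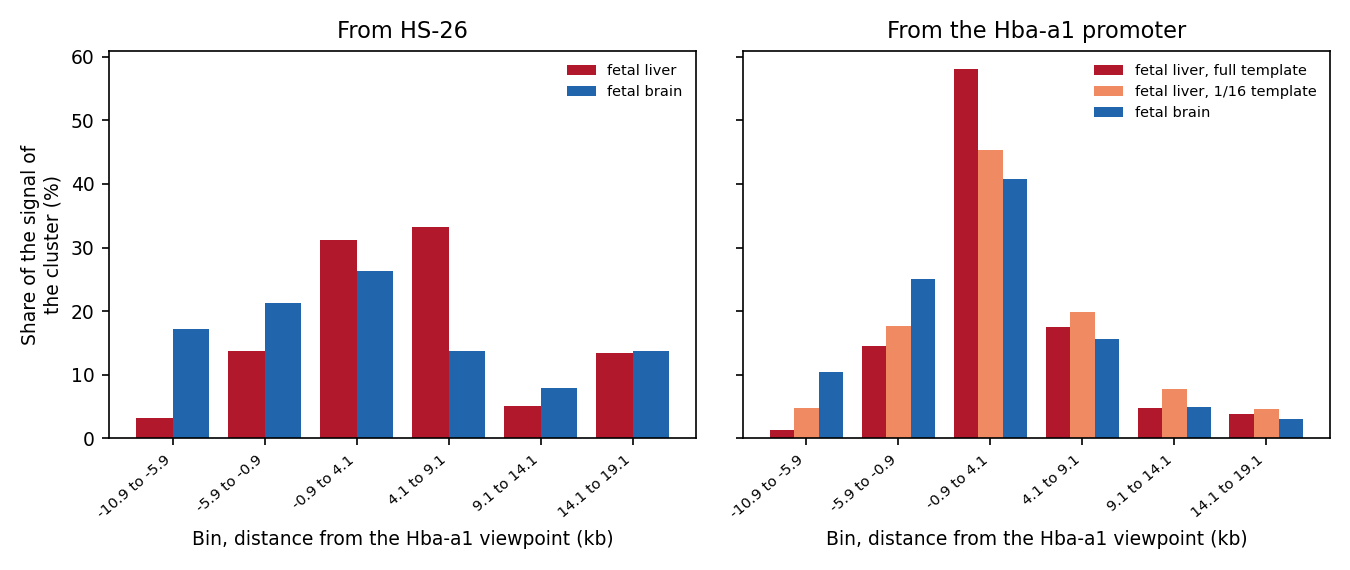
Share of the cluster's signal (%) in 6 bins of 5 kb by distance from the Hba-a1 viewpoint (kb), from HS-26 on the left and from the Hba-a1 promoter on the right, 1 bar per library. In both panels the liver bars are below the brain bar in the first bins, on the side of Hba-x.

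Matched distances on either side of the Hba-a1 viewpoint gave the same comparison within libraries. Between 3 and 10 kb, in liver with full template, the Hba-x side averaged 0.0662 and the opposite side, beyond Hba-a1, 0.450, which was 6.80-fold higher. With 1/16 template the Hba-x side averaged 0.121 and the opposite side 0.498, a 4.10-fold difference. In brain the Hba-x side averaged 0.352 and the opposite side 0.421, a 1.20-fold difference. Signal was lower on the Hba-x side in all 3 libraries, and more so in both from liver. The 1/16 value depends on the place of the viewpoint, since that library's own maximum lay 3 kb further on, and taking it as the viewpoint turned the log2 ratio of Hba-x side over opposite side to 0.68.

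At the far end of the cluster, 10 kb or more beyond the viewpoint, liver and brain differed by about as much as the liver libraries did from each other. Mean signal there was 0.0808 in liver with full template, 0.129 with 1/16 template and 0.0902 in brain. Relative signal was 1.95 with full template, 2.89 with 1/16 template and 3.18 in brain. The log2 ratio of full template over brain was -0.71, that of 1/16 template over brain -0.14 and that of 1/16 over full template 0.57. The far end, with Hba-a2 and Hbq1a in this order, also holds most windows at 0. In the 2 kb window full template over brain was 1.29, and -0.81 once windows at 0 were left out, which kept 5 positions with full template and 1 in brain.

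On the full-template grid 11 cluster positions lay more than 10 kb from the viewpoint, 10 at the far end and 1 at -10.9 kb. Of these, 2 (18.2%) were at least 2-fold higher in liver with full template than in brain, against 7.36% of all positions. Both were listed at 0 in brain, and 0 of the other 9 passed. Another 6 of 11 (54.5%) were at least 2-fold lower, against 80.4% of all. With 1/16 template, 0 of 9 were 2-fold higher and 0 of 9 lower than in brain, against 6.93% and 23.7% of all. Between the liver libraries, 6 of 9 were higher with 1/16 than with full template and 2 of 9 lower, against 67.7% and 1.85% of all. Both lower positions were listed at 0 in the 1/16 library. Beyond 10 kb the middle value was 0 at 69 of 326 full-template positions (21.2%). It was 0 at 3 of 375 with 1/16 template and 2 of 375 in brain. Another 72 full-template positions (22.1%) held a single value of 0.000681, a relative signal of 0.0164. The part of these low values in the shares of all positions was not tested.

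**Figure D5:**
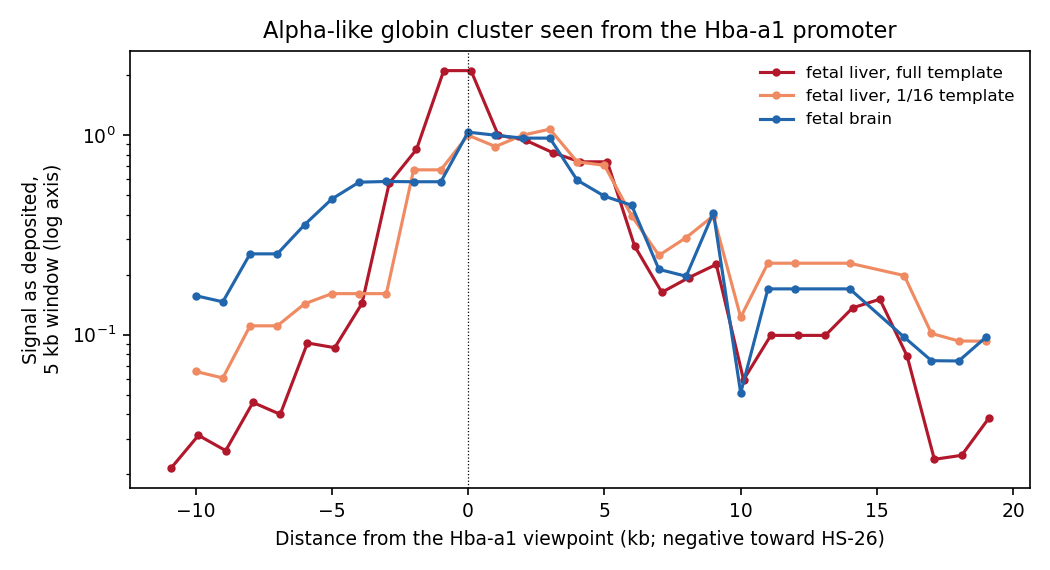
Signal as deposited (5 kb window, log axis) across the cluster from the Hba-a1 promoter, by distance from the viewpoint (kb), for liver with full template, liver with 1/16 template and brain, with positions listed at 0 not drawn. Both liver lines run below brain from about -10 to -4 kb and the 3 lines lie closer together beyond the viewpoint.

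The shape across the cluster was more alike among the Hba-a1 libraries than between the HS-26 ones. All 3 Hba-a1 profiles fall away from the region of the viewpoint, and the values describe overlapping windows. Spearman's rho was 0.85 between full template and brain over 29 positions, 0.78 between 1/16 template and brain over 28, and 0.93 between 1/16 and full template over 28.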

How the data were processed

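Near-viewpoint 4C-seq profiles of the alpha-globin locus were analysed in 5 libraries, 1 per group. The authors' deposited files hold a signal per window on the mm9 build, per the submitters' processing notes. The sources used here do not give the aligner, filters, read numbers, depth or the levels of the outer values. The window size of each set of 3 columns was read from its missing positions. Signal was divided by the library mean beyond 10 kb of the viewpoint (relative signal), positions on shifted grids were matched within 500 bp, and a 2-fold ratio with a pseudocount of 0.1 was the threshold. With 1 library per group no test was run. The calculation was tested on simulated data only with scaling by the mean outside the cluster. The scaling used for the relative signals, by a mean that includes the cluster, was not tested so. Outside bins were named by a rule: the bins closest to the cluster in log2 ratio and the highest in liver. The members and lists were chosen with earlier results of these data known. Promoters came from RefSeq GRCm38.p6. Python 3.11.15, numpy 2.4.6, pandas 2.3.3 and matplotlib 3.10.9 were used. The alternatives were other windows, scalings, summaries, viewpoint positions and treatment of positions at 0.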

Additional observations from a re-analysis of the deposited data

How the results depend on the processing

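The HS-26 cluster ratio (log2 1.24, liver over brain) was 2.48 with scaling by the library median and -0.54 unscaled. It was 2.51 against the decay on the other side and 0.71 against a decay fitted on both sides, cluster included. As a median over positions it was 0.51, as a mean of matched log2 ratios 0.52 and with the lower value of the window 0.93. Of 14 alternatives, 9 were at least 2-fold higher in liver. The unscaled value follows from the ratio of the library means beyond 10 kb, and the median-scaled value from the library medians there. Those medians were 0.000962 in HS-26 liver, which is its commonest value, and 0.00782 in HS-26 brain. In the Hba-a1 libraries they were 0.000793 with full template, 0.0166 with 1/16 template and 0.0169 in brain. The cause of the other values was not tested. The count of positions 2-fold higher (9) was 19 with median scaling. That of lower ones (4) was 0 in the 10 kb window and with median scaling. Outside the cluster, median scaling raised the higher positions from 5 to 45 of 295 (15.3%). It cut the lower ones there from 154 to 84 of 295 (28.5%). In the 10 kb window 46.6% of the outside positions were lower. By bin, median scaling gave 0.024 in the first, no scaling gave -0.30 in the third and -0.56 in the sixth, and the 2 kb window gave -1.50 in the sixth and no value in the fifth. From Hba-a1, full template over brain at the far end (-0.71) was 1.29 at 2 kb, 4.25 with median scaling, 0.57 with the lower value and -0.046 as a mean of matched log2 ratios. In the same order, 1/16 over full template (0.57) was -1.58, -3.71, -0.031 and -0.048. With median scaling the first and second bins, full template over brain, were 1.58 and 3.72. The cluster positions beyond 10 kb that were 2-fold higher (2) were 4 at 2 kb and 0 at 10 kb. They were 11 with median scaling and 0 without positions at 0. Those lower (6) were 2 at 2 kb and 0 with median scaling. Outside the cluster, the higher ones were 6.92% at 2 kb, 6.77% at 10 kb and 44.4% with median scaling. Without positions at 0 they were 6.98%. The lower ones there were 63.8% at 2 kb and 25.7% with median scaling. The ratio of cluster over opposite side was 2.31 in liver and -0.42 in brain at 2 kb. The 1/16 side ratio (-2.03) was -0.99 at 2 kb and 0.68 with its own maximum as the viewpoint. Unknown depth limits all values, and the windows at 0 limit those beyond 9.11 kb. At 2 kb from HS-26, windows at 0 also take 3 of 5 positions of the viewpoint bin. They take 1 of 5 in each bin beside it. No paired analysis was possible because each group has 1 library.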
